A study of Mus musculus with 30 samples.

Results

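The 40 genes described here are imprinted genes of 18 chromosomal domains, chosen by symbol from a set of named members and read from the 55421 genes of a count table from mouse embryonic stem cells. All 40 were present once in the table and all 40 passed the filter on low counts. The table came from RNA sequencing of 30 libraries, 3 in each of 10 groups, made from 5 engineered lines of E14 cells, a male line of the 129P2/Ola strain. Each line was sampled untreated and after 24 h of treatment, in a medium with serum, LIF and the inhibitors PD0325901 and CHIR-99021, on gelatin and without feeder cells.

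All 5 lines carry Tir1, a plant F-box protein that destroys proteins fused to an auxin-inducible degron (AID) once auxin is given. The TIR1 line carries no degron and is the control for auxin. The PDS5AB line has PDS5A-AID and PDS5B-AID, and the WAPL line has WAPL-AID. In the combined lines, PDS5AB-NIPBL has both PDS5 fusions and WAPL-NIPBL has WAPL-AID, and each also carries NIPBL-FKBP and RAD21-Halo. Treatment was 500 µM auxin, joined in the combined lines by 500 nM dTAG-13, the molecule that removes FKBP fusions. The fused proteins load, unload or regulate cohesin, which forms DNA loops by extrusion, and the series asks how the dose of such cofactors sets that process. Each genotype is 1 named cell line, so a difference between untreated lines cannot be told apart from a difference between clones. The labels do not say that the 3 libraries of a group came from separate cultures, so p-values measure the spread between these libraries.

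An imprinted gene is transcribed mainly from the copy inherited from one parent, under the control of a region that carries DNA methylation on only one parental copy. In many domains the insulator protein CTCF or a long non-coding RNA made from the control region sets which genes of the cluster are active, and cohesin is held at CTCF sites. Loss or gain of imprinted methylation is a known form of variation among cultured embryonic stem cell clones, above all at the Dlk1-Dio3 domain. The counts here hold no allele information, so a level is the sum of both parental copies, and the parent named for a gene below is background, not a measurement. The counts also ignored strand, and in bulk samples fewer expressing cells and less RNA per cell cannot be told apart.

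Each library held between 19632704 and 45539021 counted fragments. Libraries are numbered in the labels, and untreated TIR1 and both PDS5AB groups have numbers up to 21, while the other libraries have numbers from 25 to 45. The effect of auxin in the TIR1 line, and comparisons of the WAPL and combined lines with untreated TIR1, run across that break and cannot be told apart from it. For this reason both combined lines were also compared with untreated WAPL, whose libraries lie on the same side of the break. Pluripotency markers summed to between 6235 and 6998 CPM (counts scaled so that every library has the same total) in untreated libraries, none of the 8 was at 0, and the 6 feeder markers, of which Dcn, Lum and Col3a1 were at 0 in some groups, summed to at most 19 CPM in them. The degrons act on proteins, so transcript levels do not check the depletion.

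Levels in untreated TIR1 spanned a wide range on a scale corrected for gene length (TPM, in which all genes of a library sum to the same total). Cd81, a tetraspanin gene at the edge of the Kcnq1 domain, stood highest at 250.4 ± 10.03 TPM (SD, n = 3), followed by the amino acid transporter Slc38a4 at 194 ± 14.6 TPM and Impact, a regulator of translation, at 104 ± 15.3 TPM. Meg3, at 36.7 ± 5.70 TPM, Plagl1, at 34.7 ± 3.0 TPM, and Rian, at 29.4 ± 4.86 TPM, followed each other in this comparison of 3, and the intervals of mean ± SD of neighbours overlapped. Igf2, at 0.0825 ± 0.0405 TPM, and Airn, at 0.0197 ± 0.0171 TPM, were the lowest.

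Across the untreated lines, 24 of the 40 genes had a mean in their highest line more than 2 times that in their lowest. Against untreated TIR1, 15 were higher and 4 lower in PDS5AB (edgeR's quasi-likelihood test, adjusted p under 0.05), where 32% of all 19868 tested genes were called (15.5% higher and 16.5% lower). In WAPL 7 were higher and 5 lower, against 14% of all genes (6.62% and 7.39%). The PDS5AB-NIPBL line had 13 higher and 9 lower, against 34.3% of all genes (16.5% and 17.8%), and WAPL-NIPBL had 14 higher and 6 lower, against 28% (13.4% and 14.6%). Compared with untreated WAPL, 13 were higher and 9 lower in PDS5AB-NIPBL, against 20.1% of all genes (9.46% and 10.6%), and 6 higher and 4 lower in WAPL-NIPBL, against 10.7% (4.99% and 5.67%). In all 4 lines the members' share called was above that of all genes, and no test was made of that difference. Leaving out 1 library at a time, the members called in WAPL numbered 6 to 15, so the comparison of shares is least firm there. The members' median log2 difference from untreated TIR1 lay between 0.02 and 0.15 in the 4 lines, and that of all genes between -0.02 and 0.00. Only 6 members were called in none of the 4 comparisons with TIR1: Copg2, Ube3a, Mkrn3, Tssc4, Commd1 and Nap1l5.

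All 5 members of the Dlk1-Dio3 domain on chromosome 12 were low in 1 untreated line. Its non-coding RNAs Meg3, Rian (host of small nucleolar RNAs) and Mirg (host of microRNAs) are made from the maternal copy, and its protein-coding genes Dlk1 and Rtl1 from the paternal copy. All 5 were called lower in the untreated PDS5AB-NIPBL line than in untreated TIR1, and all 5 again than in untreated WAPL. Plagl1, Grb10 and Peg3, each from another domain, also differed by more than 2-fold between untreated lines. The start regions of these 4 genes are printed as examples, and whether the differences between lines depend on these regions was not tested. Each is the RefSeq window (GRCm38.p6) from 250 bases before to 50 after a start, read 5′ to 3′ on the gene's strand, and of several listed starts the one nearest the gene's outermost 5′ end in GENCODE was taken. For Plagl1 and Grb10 that RefSeq start lies inside the GENCODE gene. Capitals mark TGCCGC or its reverse complement, the hexamer bound by the imprint-protecting factor ZFP57 when methylated. The windows lie at chr12:109540746-109541045 (Meg3, plus strand), chr10:13090582-13090881 (Plagl1, plus strand), chr11:12037371-12037670 (Grb10, minus strand) and chr7:6730370-6730669 (Peg3, minus strand).
Meg3: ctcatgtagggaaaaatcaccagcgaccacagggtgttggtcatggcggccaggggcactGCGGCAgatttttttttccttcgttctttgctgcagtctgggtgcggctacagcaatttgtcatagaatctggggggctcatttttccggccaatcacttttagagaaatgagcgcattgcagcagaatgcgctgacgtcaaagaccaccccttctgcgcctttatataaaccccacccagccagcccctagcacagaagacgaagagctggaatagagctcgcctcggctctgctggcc
Plagl1: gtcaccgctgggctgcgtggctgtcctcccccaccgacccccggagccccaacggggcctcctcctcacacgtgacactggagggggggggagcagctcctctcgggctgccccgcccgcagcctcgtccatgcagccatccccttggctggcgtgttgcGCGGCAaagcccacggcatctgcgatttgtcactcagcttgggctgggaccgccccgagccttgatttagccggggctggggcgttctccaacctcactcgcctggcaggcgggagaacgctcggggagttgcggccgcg
Grb10: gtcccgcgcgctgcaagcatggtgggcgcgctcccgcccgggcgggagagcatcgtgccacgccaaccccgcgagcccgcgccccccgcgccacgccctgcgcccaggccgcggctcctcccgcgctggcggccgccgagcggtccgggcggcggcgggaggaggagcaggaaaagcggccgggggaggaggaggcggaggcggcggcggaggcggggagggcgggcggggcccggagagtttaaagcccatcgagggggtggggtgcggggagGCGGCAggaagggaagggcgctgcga
Peg3: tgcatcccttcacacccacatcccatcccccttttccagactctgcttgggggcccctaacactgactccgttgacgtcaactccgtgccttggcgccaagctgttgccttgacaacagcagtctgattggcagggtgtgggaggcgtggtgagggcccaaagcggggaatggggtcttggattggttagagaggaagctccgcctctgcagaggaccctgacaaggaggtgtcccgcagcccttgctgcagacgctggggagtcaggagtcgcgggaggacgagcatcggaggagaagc

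The hexamer occurs once in the Meg3, Plagl1 and Grb10 windows and not in the Peg3 window. Over all 32851 promoter windows of this length 11.6% hold it on either strand. Of the 40 members 33 had a window in RefSeq, and 8 of these windows hold it. The Grb10 window holds 45 CpG dinucleotides, Plagl1 26, and Meg3 and Peg3 13 each, beside a median of 7 over all windows and of 15 over the members' windows. Methylation and binding were not measured here, and a match is only a match of letters.

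Meg3 (chr12:109541001-109571726, plus strand) was measured at 224, 200 and 253 CPM in the 3 untreated TIR1 libraries and at 188, 195 and 259 in untreated WAPL. Untreated PDS5AB had 168, 176 and 209 CPM, and untreated WAPL-NIPBL 249, 241 and 299. The 3 untreated PDS5AB-NIPBL libraries had 10.2, 13.5 and 16.5 CPM. Those 3 stood below every other untreated library, at 5.95% of the TIR1 mean (log2 difference -4.07 ± 0.19 SE, edgeR adjusted p 3.1e-16) and 6.26% of the WAPL mean (-3.99 ± 0.19, adjusted p 5.78e-16). After 24 h of treatment the same line had 12.9, 15.2 and 14.4 CPM. Over all 30 libraries, the lowest Meg3 level outside the PDS5AB-NIPBL line was 9.48 times the highest one inside it.

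Rian had 16.6, 21.9 and 23.1 CPM in untreated PDS5AB-NIPBL, beside 287, 310 and 359 in TIR1 and 273, 299 and 317 in WAPL. Its log2 difference was -3.96 ± 0.16 from TIR1 (edgeR adjusted p 1.33e-17) and -3.85 ± 0.16 from WAPL (adjusted p 1.02e-16). Mirg had 1.04, 1.57 and 1.44 CPM, beside 19.4, 20.1 and 23.9 in TIR1, a difference of -3.97 ± 0.17 (adjusted p 5.02e-17). The 3 RNAs, which lie one after the other on the same strand, thus stood at 5.95%, 6.43% and 6.39% of their TIR1 means. None of them was called in any of the 5 treatment effects, where their log2 changes lay between -0.23 and 0.29. With a term for replicate number within each set of library numbers, the small changes of Meg3 in PDS5AB (0.23, adjusted p 0.0116) and WAPL-NIPBL (0.29, adjusted p 0.00597) were called, as they were with no filter on low counts (adjusted p 0.0278 and 0.00794). Between untreated WAPL-NIPBL and WAPL, Rian was called higher, at 394, 405 and 409 CPM (log2 0.44 ± 0.14, edgeR adjusted p 0.0359), and it was called lower in untreated PDS5AB than in TIR1 (-0.36 ± 0.14, adjusted p 0.0471). In the former comparison Meg3 was 0.30 and Mirg 0.26 higher without a call (adjusted p 0.283 and 0.229), and both were called with that term (0.00356 and 0.0390), Meg3 also with a plain term for replicate number (0.0357) and with no filter (0.00304).

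Rtl1, a gene derived from a retrotransposon and needed in the placenta, had 0.466, 0.261 and 0.131 CPM (13, 6 and 4 counts) in untreated PDS5AB-NIPBL, against 2.68, 3.65 and 4.18 in TIR1. The log2 difference was -3.61 ± 0.26 (edgeR adjusted p 1.12e-11). Rtl1 exons overlap the hairpins of 6 microRNAs made from the other strand, including Mir127 and Mir136, and with strand ignored those counts cannot be divided between Rtl1 and its maternal antisense transcript. Dlk1, a membrane ligand related to Notch ligands, has no exon overlap. It had 4, 1 and 10 counts in untreated PDS5AB-NIPBL and 34, 24 and 18 in untreated TIR1, a log2 difference of -2.39 ± 0.51 (adjusted p 0.000543). Untreated PDS5AB-NIPBL was below the other lines in both the maternal and the paternal genes of the domain, and for Dlk1 the separation rests on these few counts. Against untreated WAPL the log2 differences of Mirg, Rtl1 and Dlk1 in that line were -3.72 ± 0.17, -3.14 ± 0.27 and -2.18 ± 0.52, all called.

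**Figure D1:**
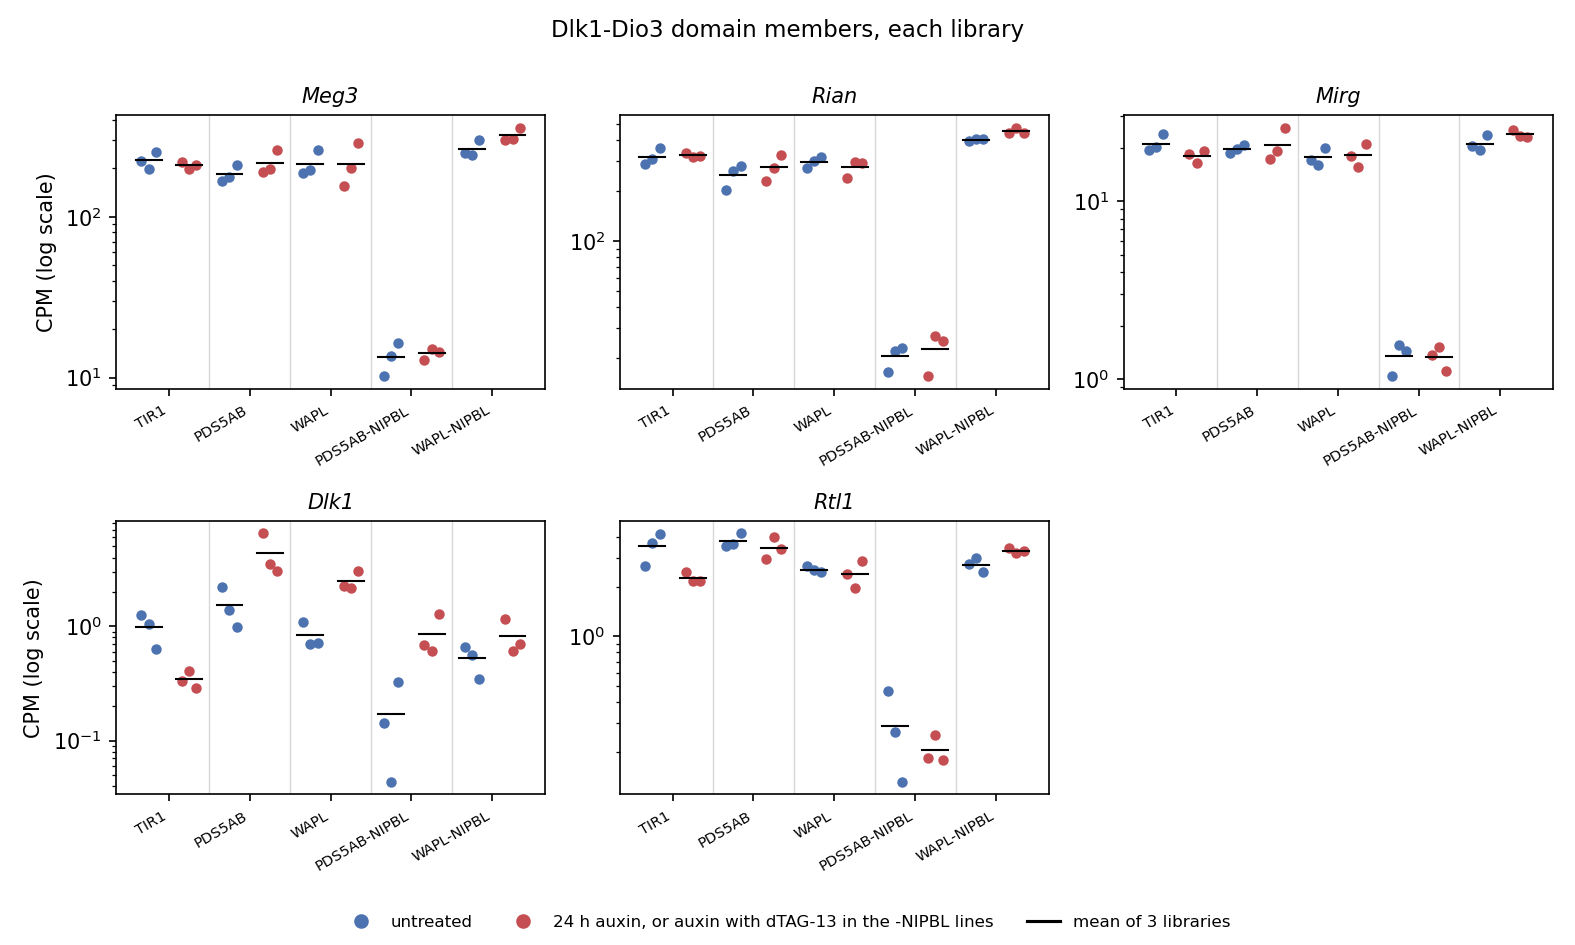
CPM (log axis) of the 5 Dlk1-Dio3 members in each of the 30 libraries, by line, untreated in blue and treated in red, with black bars for the mean of 3. Meg3, Rian, Mirg and Rtl1 sit lowest in all 6 PDS5AB-NIPBL libraries, and the mean of Dlk1 is higher with treatment in every line but TIR1, where it is lower.

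Plagl1, a paternally expressed zinc-finger gene that restrains growth, separated all 5 untreated lines. It was measured at 88.9, 92.0 and 95.5 CPM in TIR1, 9.85, 11.9 and 11 in PDS5AB, and 99.3, 114 and 113 in WAPL. The PDS5AB-NIPBL libraries had 40.1, 39.2 and 36.6 CPM and WAPL-NIPBL 358, 348 and 341. None of these groups overlapped, and TIR1 and WAPL lay nearest each other (log2 difference 0.24 ± 0.08, adjusted p 0.0465). PDS5AB stood at 11.9% of TIR1 (log2 -3.08 ± 0.09, edgeR adjusted p 3.1e-21), a comparison inside 1 side of the break in library numbers. The differences of PDS5AB-NIPBL (-1.25 ± 0.08) and WAPL-NIPBL (1.92 ± 0.08) from TIR1 were called too. On the other side, PDS5AB-NIPBL lay below WAPL (difference -1.49 ± 0.08, adjusted p 3.49e-14) and WAPL-NIPBL 1.68 ± 0.08 above it (adjusted p 4.27e-15).

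Grb10, an adaptor of insulin and growth factor receptors and maternally expressed in most tissues, moved the other way in PDS5AB. Its untreated levels were 229, 242 and 254 CPM there and 48.7, 44.4 and 48.5 in TIR1, 5.11-fold apart (log2 2.35 ± 0.08, edgeR adjusted p 4.28e-20). WAPL had 40, 38.8 and 39 CPM, PDS5AB-NIPBL 68.5, 62.5 and 73.0, and WAPL-NIPBL 29.7, 24.8 and 27.5. The order from WAPL-NIPBL up to PDS5AB thus held with no overlap between neighbouring lines. Against TIR1 the differences of WAPL-NIPBL (-0.79 ± 0.08), WAPL (-0.27 ± 0.08) and PDS5AB-NIPBL (0.53 ± 0.08) were called, as were those of WAPL-NIPBL (-0.53 ± 0.08) and PDS5AB-NIPBL (0.79 ± 0.08) against WAPL. The call of WAPL against TIR1 (adjusted p 0.0200) was lost without TIR1 replicate 1 or 3 or WAPL replicate 2 or 3 (0.0700 to 0.0825). The opposite orders of Plagl1 and Grb10 over the 5 lines are a description of 5 means, since each line is 1 clone.

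Cdkn1c, an inhibitor of cyclin-dependent kinases in the Kcnq1 domain, was at 25.5, 21.1 and 19.5 CPM in untreated PDS5AB and 3.56, 3.43 and 2.48 in TIR1. It was 6.98-fold higher (log2 2.80 ± 0.16, edgeR adjusted p 2.08e-14). PDS5AB-NIPBL was also higher, at 8.43, 5.75 and 6.42 CPM (1.13 ± 0.17 from TIR1, adjusted p 5.12e-06), and WAPL-NIPBL lower, at 1.18, 1.34 and 1.61 (-1.18 ± 0.21, adjusted p 7.84e-05). Against untreated WAPL (3.0, 2.40 and 2.24 CPM), PDS5AB-NIPBL was 1.42 ± 0.17 higher and WAPL-NIPBL lower (-0.88 ± 0.21, adjusted p 0.00490, lost without WAPL replicate 1 at 0.0518). Exons of a predicted gene on the other strand cover 30.7% of Cdkn1c's, so its counts may be incomplete. Of its neighbours, Phlda2, a growth-restraining gene of the placenta, was at 7.41, 7.62 and 5.90 CPM in WAPL and 7.77, 6.70 and 7.93 in WAPL-NIPBL, below 18.2, 17.7 and 12.6 in TIR1 (-1.20 ± 0.13, adjusted p 1.69e-07, and -1.11 ± 0.13, adjusted p 2.59e-07). In PDS5AB-NIPBL it was 0.99 ± 0.13 above WAPL. Slc22a18, a transporter gene, was also called lower than TIR1 in WAPL (-0.82 ± 0.23) and WAPL-NIPBL (-0.72 ± 0.23), and Ascl2, a trophoblast transcription factor gene, higher in PDS5AB (0.66 ± 0.18). Kcnq1ot1, the paternal non-coding RNA that silences the domain, differed by at most 0.52 log2 units from TIR1 in any line. It was called once, in WAPL-NIPBL (0.52 ± 0.19, adjusted p 0.0387), with overlapping groups. Against untreated WAPL, Kcnq1ot1 in PDS5AB-NIPBL (-0.52, adjusted p 0.0582) and Ascl2 in WAPL-NIPBL (-0.54, adjusted p 0.0530) were called with the replicate terms (0.0351 and 0.0156 for Kcnq1ot1, 0.0143 and 0.00909 for Ascl2). Slc22a18 in PDS5AB-NIPBL (0.57, adjusted p 0.0825) was called with the term within library sets (0.0485).

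In the Peg10 domain all 3 members were higher than TIR1 in both lines with PDS5 fusions, and single members in the other lines. Peg10, a placental gene of retrotransposon origin, had 195, 132 and 128 CPM in PDS5AB and 37.5, 33.8 and 37 in TIR1 (log2 2.07 ± 0.13, edgeR adjusted p 2.45e-13), and 68.0, 76.5 and 76.1 in PDS5AB-NIPBL (1.03 ± 0.13, adjusted p 4.38e-07). It was also called higher in WAPL, at 53.2, 57.2 and 56.3 CPM (0.62 ± 0.13, adjusted p 0.00164). Sgce, the divergent neighbour that encodes a sarcoglycan, was 1.6 ± 0.19 higher in PDS5AB and 0.99 ± 0.20 in PDS5AB-NIPBL. Ppp1r9a, which encodes an actin-binding protein of synapses, was 1.05 ± 0.16 and 1.18 ± 0.16 higher in those lines, and 0.53 ± 0.17 higher in WAPL-NIPBL (adjusted p 0.0159). None of these groups overlapped those of TIR1. Against untreated WAPL Peg10 (0.40 ± 0.13) and Ppp1r9a (0.74 ± 0.16) were called higher in PDS5AB-NIPBL, and Peg10 (-0.82 ± 0.13) and Sgce (-0.88 ± 0.22) lower in WAPL-NIPBL. Sgce in PDS5AB-NIPBL was 0.51 higher (adjusted p 0.0610), and called with the replicate term within library sets (adjusted p 0.0329).

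Mest, a hydrolase gene of mesoderm, was called higher than TIR1 in all 4 other lines. It had 13.8, 16.4 and 15.3 CPM in TIR1, 61.3, 46.4 and 42.2 in PDS5AB, 27.6, 27.1 and 28.3 in WAPL, 55.0, 57.5 and 77.3 in PDS5AB-NIPBL and 34.5, 26.4 and 33.2 in WAPL-NIPBL. PDS5AB-NIPBL was 4.18-fold above TIR1 (log2 2.06 ± 0.14, edgeR adjusted p 1.69e-12) and PDS5AB 3.30-fold (1.72 ± 0.14, adjusted p 3.13e-11). WAPL (0.87 ± 0.14) and WAPL-NIPBL (1.05 ± 0.14) differed less, and PDS5AB-NIPBL lay 1.19 ± 0.13 above WAPL (adjusted p 4.87e-08). Its neighbour Copg2, whose exons overlap those of Mest on the other strand, was not called in any line. Gnas, the gene of a stimulatory G protein with transcripts from either parent, had 58.2, 38 and 46.2 CPM in PDS5AB and 15.4, 14.4 and 13 in TIR1 (1.74 ± 0.13, adjusted p 5.2e-12). Untreated PDS5AB-NIPBL had 26.6, 24.2 and 33.5 CPM and WAPL 9.76, 9.10 and 11.8, a difference of 1.47 ± 0.13 inside 1 side of the break (adjusted p 9.4e-10). Against TIR1 Gnas was 0.98 ± 0.13 higher in PDS5AB-NIPBL and lower in WAPL (-0.48 ± 0.14, adjusted p 0.0163). The antisense Nespas shares exon bases with Gnas, and fragments within them were dropped, so the counts of Gnas may be incomplete. In WAPL-NIPBL Gnas was 0.40 above untreated WAPL without a call (adjusted p 0.0589), and called with the replicate terms (0.0408 and 0.00751).

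H19 and Igf2, the RNA and the growth factor of the distal chromosome 7 domain that CTCF divides in textbook descriptions, were both low. H19 had 1.91, 0.616 and 1.10 CPM in TIR1, 3.54, 2.28 and 1.99 in PDS5AB (log2 1.07 ± 0.29, edgeR adjusted p 0.00407) and 3.13, 3.88 and 4.64 in WAPL-NIPBL (1.67 ± 0.28, adjusted p 4.1e-05). WAPL, at 1.85, 2.96 and 2.24 CPM, overlapped TIR1 and was called higher (0.93 ± 0.29, adjusted p 0.0300), a call lost in the compared groups alone (0.0503) and without TIR1 replicate 2 or 3 or WAPL replicate 2 or 3 (0.0561 to 0.189). H19's log2 difference from untreated WAPL was -0.73 for PDS5AB-NIPBL and 0.74 for WAPL-NIPBL (adjusted p 0.0698 and 0.0629), and both were called with the replicate term within library sets (0.0253 and 0.0124), with no filter (0.0253 and 0.0104) and by DESeq2 (0.0405 and 0.0385). Igf2 had 98, 53 and 70 counts in PDS5AB and 7, 2 and 4 in TIR1 (3.78 ± 0.47, adjusted p 2.28e-07), and at most 10 in any untreated library of the other lines. Only PDS5AB was thus called higher than TIR1 for Igf2. PDS5AB-NIPBL, with 10, 7 and 6 counts, was called higher than WAPL, with 4, 0 and 0 (adjusted p 0.0166), a call lost without PDS5AB-NIPBL replicate 1 or WAPL replicate 2 or 3 (0.0628 to 0.0803). Shared exons with Igf2os and a same-strand predicted gene cover 64.6% of Igf2's exon bases.

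In the Peg3 domain the 3 members were higher in untreated WAPL-NIPBL than in untreated TIR1. Peg3, a zinc-finger gene of maternal care and growth, had 147.96, 140 and 143 CPM against 51.1, 54.1 and 56.1 (log2 1.42 ± 0.10, edgeR adjusted p 2.61e-12) and against 57.0, 67.9 and 71.3 in WAPL (1.14 ± 0.09, adjusted p 4.11e-10). PDS5AB-NIPBL, at 83.0, 86.5 and 95.1 CPM, was also called higher than TIR1 (0.72 ± 0.09) and WAPL (0.43 ± 0.09). WAPL was called higher than TIR1 (0.28 ± 0.09, adjusted p 0.0433), which was lost without any of 5 single libraries (0.0626 to 0.191), all but WAPL replicate 1. Usp29, which starts beside Peg3 on the other strand, had 5.16, 5.18 and 3.95 CPM against 0.955, 1.01 and 1.28 in TIR1 (2.13 ± 0.21, adjusted p 5.79e-09) and 1.20, 1.30 and 0.787 in WAPL (2.10 ± 0.21). Zim1, a maternally expressed zinc-finger gene, had 1.61, 1.59 and 1.40 CPM against 0.625, 0.616 and 0.886 (1.09 ± 0.31, adjusted p 0.00766), though it was not called against WAPL (0.65, adjusted p 0.172). Paternal and maternal genes of the domain were both higher than in TIR1, with no overlap of libraries.

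Nnat, a small membrane protein gene of brain and endocrine cells, had 10.1, 9.84 and 15.0 CPM in PDS5AB-NIPBL and 4.96, 6.60 and 4.43 in TIR1 (log2 1.14 ± 0.22, edgeR adjusted p 0.000163). WAPL-NIPBL had 10.6, 7.96 and 9.29 CPM (0.80 ± 0.22 from TIR1, adjusted p 0.00724). Against untreated WAPL, at 2.53, 3.24 and 5.51 CPM, both combined lines were higher (1.65 ± 0.23, adjusted p 1.87e-06, and 1.32 ± 0.23, adjusted p 0.000152). Nnat was lower in PDS5AB (3.27, 2.21 and 2.54 CPM, -0.99 ± 0.24, adjusted p 0.00187). In the Snrpn domain on chromosome 7, Ndn, a MAGE-family gene, was at 9.21, 8.99 and 8.78 CPM in PDS5AB and 4.41, 4.53 and 2.84 in TIR1 (1.20 ± 0.16, adjusted p 5.01e-07). In PDS5AB-NIPBL Ndn was 0.87 ± 0.16 above TIR1 and 0.78 ± 0.16 above WAPL. Magel2, of the same family, had 45, 17 and 36 counts in PDS5AB against 17, 1 and 8, which overlap (1.63 ± 0.49, adjusted p 0.0106). Without PDS5AB replicate 1 or TIR1 replicate 2 the Magel2 call was lost (adjusted p 0.0774 and 0.0732). Snrpn, which encodes a small nuclear ribonucleoprotein, differed from TIR1 by at most 0.33 log2 units. It was called higher in PDS5AB (0.33 ± 0.09, with overlapping libraries) and PDS5AB-NIPBL (0.27 ± 0.09) and lower in WAPL-NIPBL (-0.25 ± 0.10, adjusted p 0.0496), each lost without single libraries (adjusted p 0.0539 to 0.264 where lost), and the last also with RLE scaling (0.0502) or no filter (0.0738). PDS5AB-NIPBL was 0.46 ± 0.09 above WAPL (adjusted p 0.000582). Peg13, a paternal non-coding RNA, had 16, 16 and 24 counts in TIR1 and 2 to 9 in the untreated libraries of the other 4 lines, and was called lower in each (adjusted p from 0.000105 to 0.00768).

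Most other differences between untreated lines were small. Impact was called higher than TIR1 in all 4 lines (log2 0.37 to 0.72) and 0.34 ± 0.08 higher in PDS5AB-NIPBL than in WAPL, and Cd81 higher in all but PDS5AB (0.36 to 0.45). Zrsr1, a splicing factor gene, was lower in PDS5AB-NIPBL than in TIR1 (-0.55 ± 0.08) and WAPL (-0.41 ± 0.08), and higher in WAPL-NIPBL than in either (0.21 ± 0.08 and 0.35 ± 0.08). Slc38a4 was lower in PDS5AB-NIPBL than in TIR1 (-0.22 ± 0.07) and WAPL (-0.31 ± 0.07), and in WAPL-NIPBL Igf2r (0.41 ± 0.12) and Zdbf2 (0.59 ± 0.17) were higher than in TIR1. Airn, the paternal non-coding RNA that silences Igf2r, had 5, 8 and 11 counts in PDS5AB, 3, 6 and 7 in WAPL, and at most 1 in TIR1 and PDS5AB-NIPBL. PDS5AB was called above TIR1 for it (adjusted p 0.00827) and PDS5AB-NIPBL below WAPL (0.0399).

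Marker levels also differed between the untreated lines. In PDS5AB the 4 markers of two-cell-like cells, a rare state that resembles the early embryo, summed to between 20.7 and 28.5 CPM, against 1.28 to 2.13 in TIR1, and all 4 were called higher. They summed to 1.09-2.41 CPM in WAPL, while PDS5AB-NIPBL had 0.0328-0.143 and WAPL-NIPBL 0.190-0.388, with 3 of 4 called lower than TIR1 in each combined line and Tcstv3 at 0 there. The 6 primitive endoderm markers summed to 16.9-21.6 CPM in PDS5AB and 5.53-6.47 in TIR1 (4 called higher), and the 4 germ cell markers to 58.1-62.4 and 116-125 (1 called higher and 3 lower). In PDS5AB-NIPBL the germ cell sum was 70.3-71.1 CPM, with 3 called lower than TIR1. In WAPL-NIPBL the 7 trophoblast markers summed to 76.5-85.2 CPM, against 101-108 in TIR1, with 2 of 6 tested called higher and 4 lower. The 5 mesoderm markers summed there to 10.7-12.98 CPM, against 7.76-8.16 in TIR1, with 1 called higher and 1 lower. Of 8 pluripotency markers, 2 were called higher and 4 lower in PDS5AB than in TIR1. Not every list is given here, and the part of these shifts in the members' differences between lines was not tested.

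**Figure D2:**
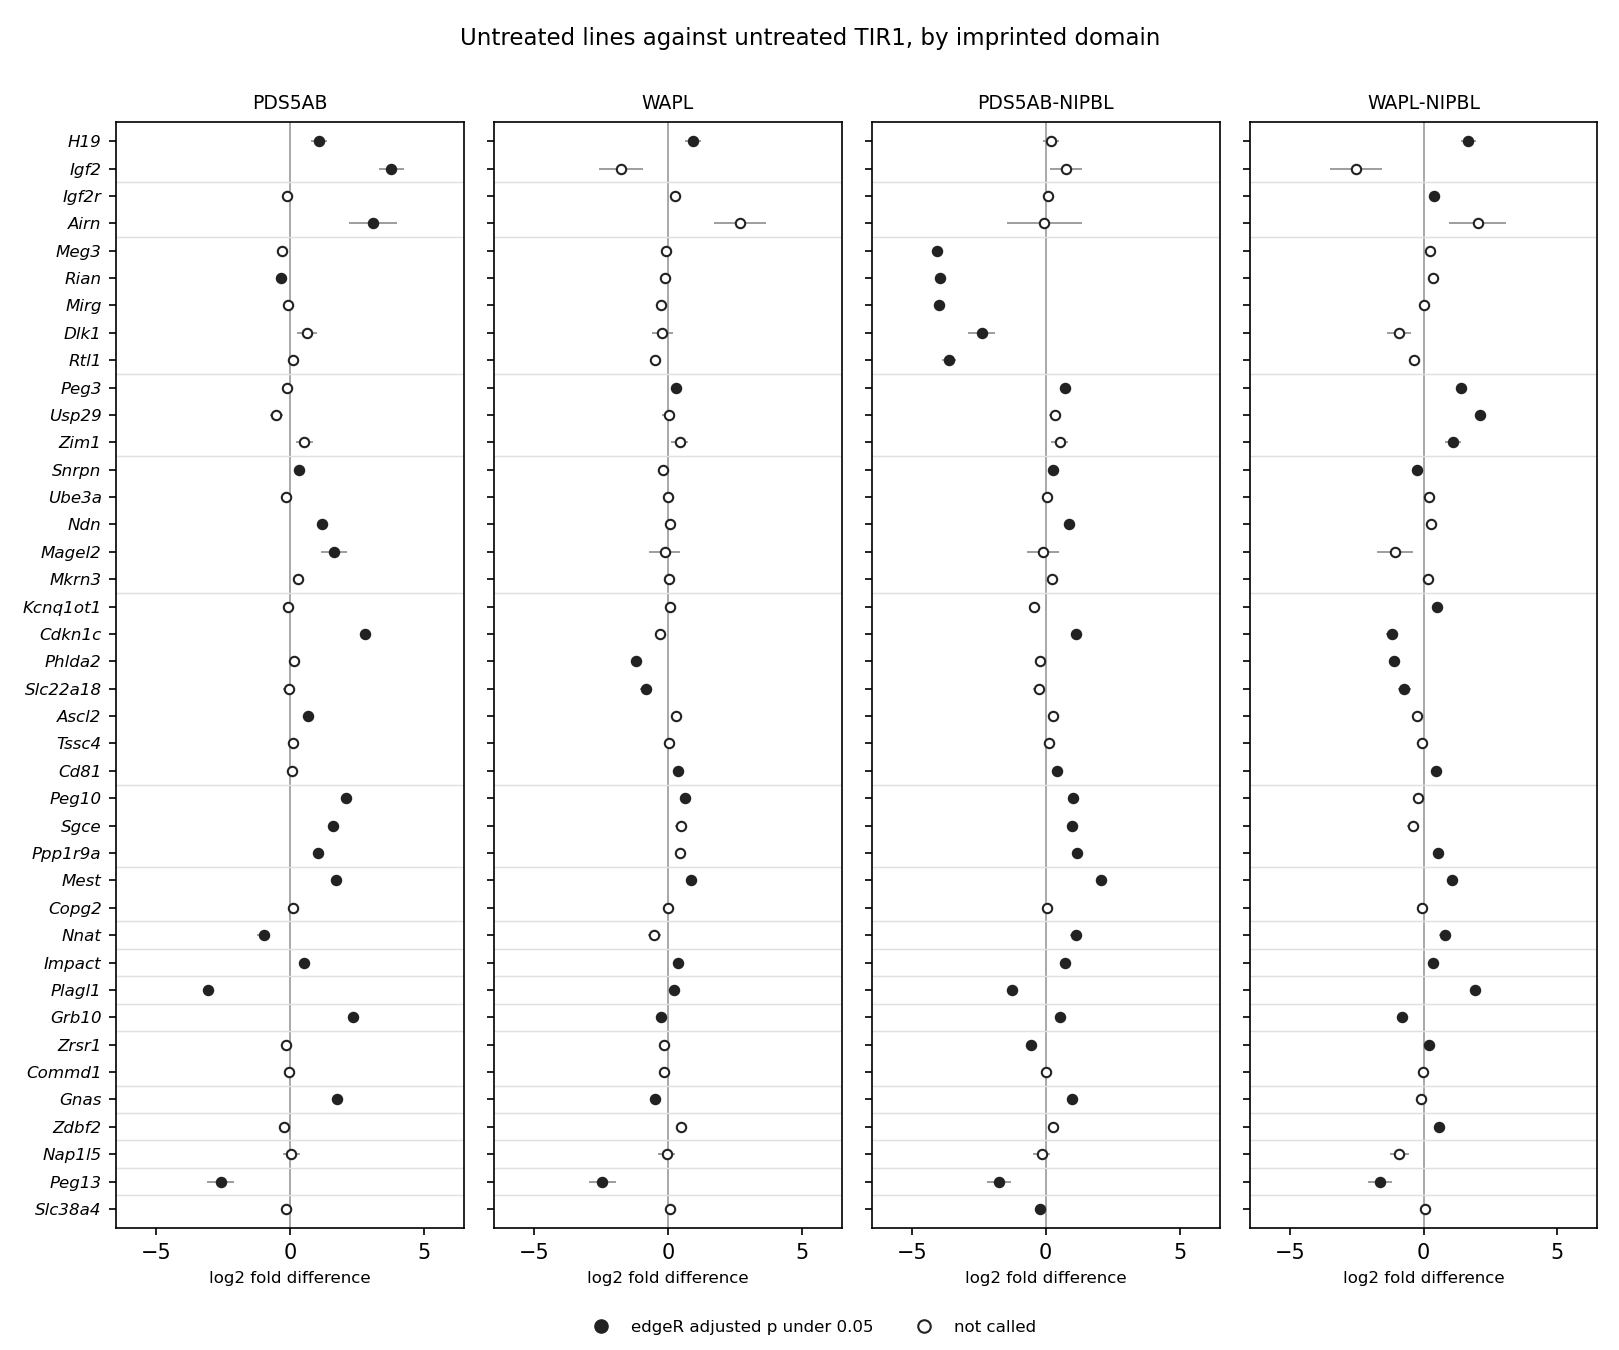
Log2 difference of each untreated line from untreated TIR1 (edgeR, 3 libraries a group), with bars of 1 standard error, for the 40 genes ordered by domain, filled where called. The 5 Dlk1-Dio3 genes lie between -4.07 and -2.39 in PDS5AB-NIPBL, and Plagl1 runs from -3.08 in PDS5AB to 1.92 in WAPL-NIPBL.

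**Figure D3:**
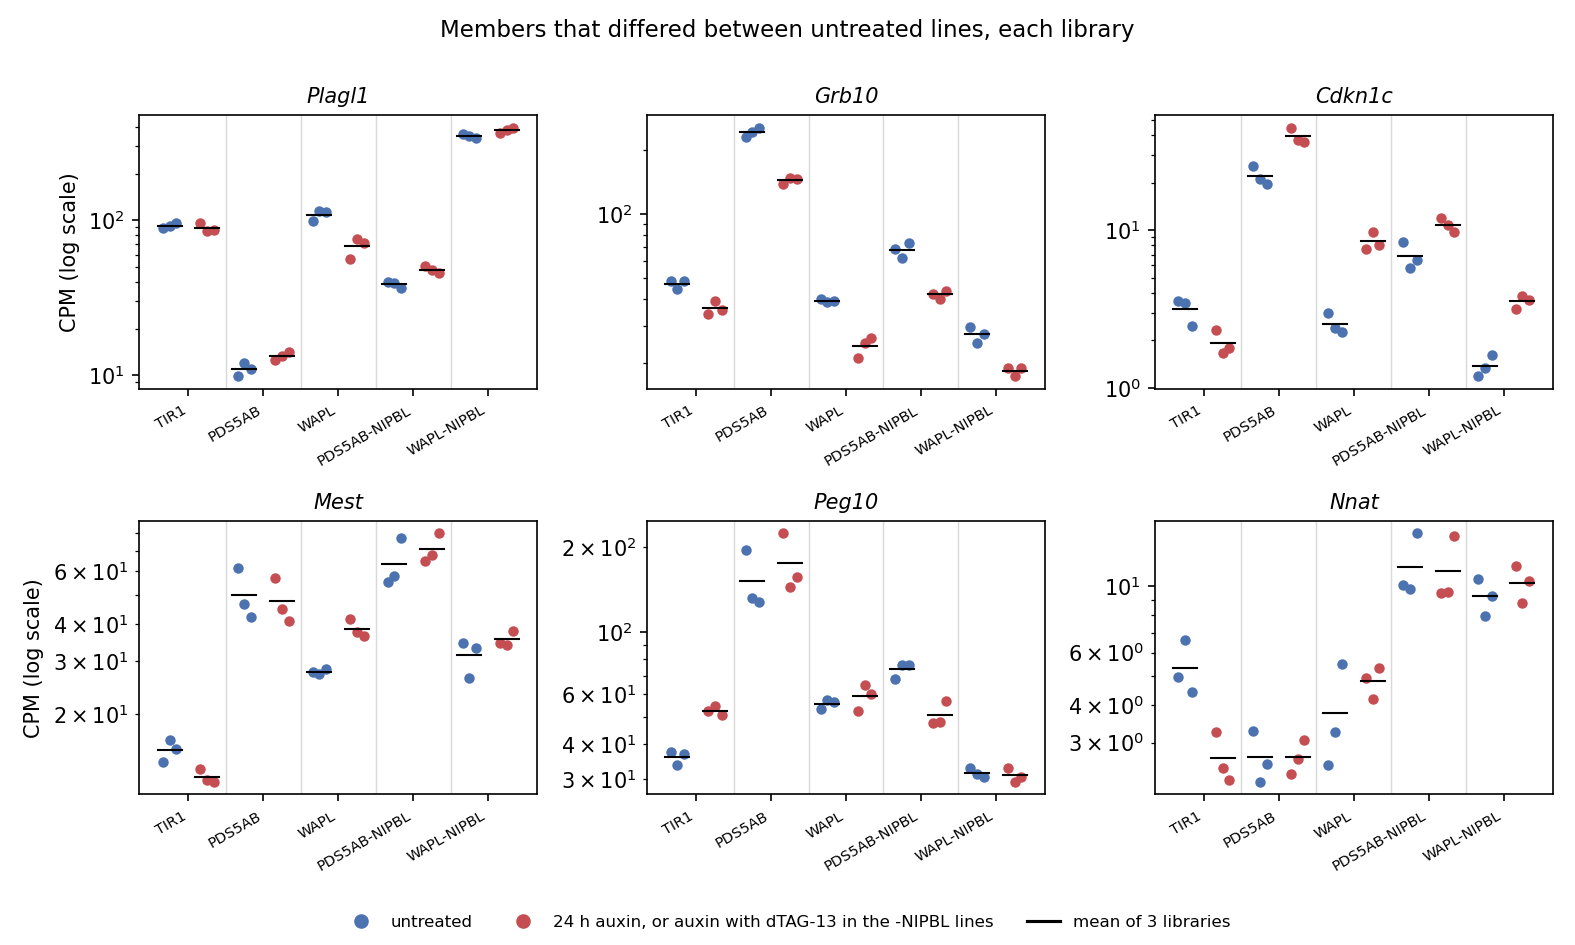
CPM (log axis) of 6 genes in each of the 30 libraries, by line, untreated in blue and treated in red, with black bars for the mean of 3. Plagl1 and Grb10 differ more between lines than with treatment, and the 3 untreated PDS5AB libraries of Grb10 lie between 229 and 254.

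Among called members, more rose than fell in each of the 4 depletions, and more fell than rose with auxin alone. In the TIR1 line 4 rose and 8 fell, where 19.9% of all genes were called (10.4% higher and 9.59% lower). In PDS5AB 16 rose and 6 fell, against 46% of all genes (25.8% and 20.2%), and in WAPL 17 rose and 4 fell, against 32.8% (17% and 15.8%). PDS5AB-NIPBL had 13 higher and 3 lower members, against 19.5% (11.4% and 8.06%), and WAPL-NIPBL 7 and 1, against 8.57% (5.11% and 3.45%). The 5 treatments in that order called 3, 5, 6, 4 and 2 members at 2-fold or more, where 3.69%, 13%, 8.82%, 4.18% and 1.75% of all genes were. At that size the members' share in PDS5AB was near that of all genes. The members' median log2 change was 0.09, 0.29, 0.15 and 0.17 in the 4 depletions, and that of all genes between 0.00 and 0.04. These 4 comparisons run within single lines and inside 1 side of the break in library numbers. With the replicate term within each set of library numbers, PDS5AB-NIPBL had 15 higher and 7 lower members, where that fit called 30.8% of all genes (16.2% higher and 14.6% lower). In the same fit WAPL-NIPBL had 11 higher and 3 lower members, against 19.7% of all genes (10.3% higher and 9.34% lower). Without that term, and leaving out 1 library at a time, the members called numbered 7 to 10 in TIR1. They numbered 10 to 14 in PDS5AB-NIPBL and 5 to 7 in WAPL-NIPBL.

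Marker levels of cell state also differed with these treatments. Pluripotency markers summed to between 6235 and 6990 CPM in untreated and 4167 and 4531 in treated PDS5AB libraries (8 of 8 called lower), and to between 6261 and 6504 and then 4938 and 5149 in WAPL (6 lower). In PDS5AB-NIPBL the sums were 6681-6998 and 5587-5941 CPM and in WAPL-NIPBL 6364-6509 and 5329-5493, with 6 called lower in each, while in TIR1 2 were called higher and 2 lower. Two-cell-like markers summed to 20.7-28.5 CPM in untreated and 50.2-69.1 in treated PDS5AB, and to 1.09-2.41 and 7.56-10.6 in WAPL, with all 4 called higher in both. None of them was called in the combined lines, where the treated sums were at most 0.505 and 1.07 CPM, or in TIR1.

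Primitive endoderm markers summed to 16.9-21.6 CPM in untreated and 47.7-61.2 in treated PDS5AB, and to 8.60-11.4 and 34.7-49.99 in WAPL (3 and 4 of 6 called higher). The sums were 6.09-7.93 and 13.5-18.1 CPM in PDS5AB-NIPBL, 3.81-3.84 and 7.72-9.52 in WAPL-NIPBL (2 higher in each), and 5.53-6.47 and 5.38-6.67 in TIR1 (none called). Germ cell markers summed to 129-138 CPM in untreated and 64.9-72.7 in treated WAPL (1 of 4 called higher and 1 lower), to 70.3-71.1 and 38.3-42.9 in PDS5AB-NIPBL (2 lower), and to 116-125 and 181-189 in TIR1 (2 higher). In PDS5AB the germ cell sums were 58.1-62.4 and 56.5-63.3 CPM, with 3 called higher and 1 lower, and in WAPL-NIPBL 1 was called higher and 1 lower. The 7 trophoblast markers, which share Tfap2c with the germ cell list, summed to 88.7-108 and 39.97-46.7 CPM in WAPL (2 of 6 tested called higher and 2 lower) and to 101-108 and 149-154 in TIR1 (2 higher). Of the 6 tested, 2 were called higher and 2 lower in PDS5AB, 3 and 2 in PDS5AB-NIPBL, and 1 and 1 in WAPL-NIPBL. Of 5 mesoderm and 4 neural markers, 1 and 2 were called higher in PDS5AB and 2 of each in WAPL, with 1 of each list lower in both lines. In PDS5AB-NIPBL 1 mesoderm and 2 neural markers were called higher and 1 of each lower, and the neural sums were 66.1-91.0 and 112-132 CPM. In WAPL-NIPBL 1 mesoderm marker was called higher and 1 of each list lower, with mesoderm sums of 10.7-12.98 and 14.6-20.8 CPM. In TIR1 1 mesoderm marker was called higher and 2 neural markers lower, with mesoderm sums of 7.76-8.16 and 10.9-12.1 CPM.

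The 6 feeder markers, of which 3 could be tested, summed to 13.5-14.01 CPM in untreated and 4.38-5.37 in treated WAPL (3 lower), and to 16.8-18.98 and 19.5-21.9 in PDS5AB (2 higher). In PDS5AB-NIPBL 1 was called higher and 1 lower, and 1 lower in each of WAPL-NIPBL and TIR1. Apart from the feeder genes named above and Tcstv3 in the combined lines, no marker of these lists was at 0 in a group, and the part of these shifts in the changes below was not tested.

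Cdkn1c and Slc38a4 rose in all 4 depletions, and Grb10 fell in all 4. Cdkn1c went from the 3.0, 2.40 and 2.24 CPM of untreated WAPL to 7.63, 9.74 and 8.10 (log2 change 1.73 ± 0.17, edgeR adjusted p 2.3e-09), and from 1.18, 1.34 and 1.61 to 3.16, 3.83 and 3.60 in WAPL-NIPBL (1.35 ± 0.20, adjusted p 2.89e-05). In PDS5AB it reached 44.5, 37.3 and 36.4 CPM (0.84 ± 0.13, adjusted p 6.82e-06), and in PDS5AB-NIPBL 12, 10.8 and 9.71 (0.65 ± 0.15, adjusted p 0.00229). Treated and untreated libraries were separate in every line. In TIR1 it fell (-0.71 ± 0.19, adjusted p 0.00687), a call lost without untreated replicate 1 (0.0601) or auxin replicate 2 (0.0505). The difference from that effect was called in both single-cofactor lines (1.55 ± 0.23 in PDS5AB and 2.44 ± 0.25 in WAPL).

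Other genes of the Kcnq1 domain did not move as one. Phlda2 fell in PDS5AB from 18.6, 19 and 15.6 CPM to 10.7, 10.1 and 8.26 (-0.87 ± 0.13, edgeR adjusted p 2.12e-06). It rose in PDS5AB-NIPBL to 17, 20.1 and 18.4 CPM from 14.7, 12.8 and 14.1 (0.42 ± 0.13, adjusted p 0.0205), and the difference between these effects was called (1.29 ± 0.18, adjusted p 2.88e-05). Its rise in WAPL-NIPBL was 0.55 ± 0.14. Slc22a18, beside it, was called in WAPL alone among the 5 treatments (0.70 ± 0.23), and Kcnq1ot1 in none, with changes between -0.16 and 0.30. Ascl2 fell in PDS5AB-NIPBL (-0.62 ± 0.19) and in TIR1 (-0.59 ± 0.18). In WAPL it was 0.38 higher without a call (adjusted p 0.0939), and with the replicate terms it was called (adjusted p 0.0286 and 0.0189).

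Grb10 fell in PDS5AB to 139, 147.7 and 147 CPM from 229, 242 and 254 (log2 -0.74 ± 0.07, edgeR adjusted p 2.48e-09). In WAPL it went from 40, 38.8 and 39 to 21.2, 24.9 and 26.4 CPM (-0.70 ± 0.08, adjusted p 4.74e-08). The changes in PDS5AB-NIPBL and WAPL-NIPBL were -0.69 ± 0.08 and -0.57 ± 0.08. A fall was also called with auxin in TIR1 (-0.38 ± 0.08, adjusted p 0.000659). The falls in PDS5AB and WAPL were larger than that (differences -0.36 ± 0.11, adjusted p 0.0135, and -0.31 ± 0.11, adjusted p 0.0426). The second of these differences was lost in a fit of the compared groups alone (0.0991), with no filter (0.0693) and without any of 7 single libraries (0.0560 to 0.140), 4 of WAPL and 3 of TIR1. Slc38a4 rose by 0.72 ± 0.07 in PDS5AB and 0.65 ± 0.07 in WAPL, and by 0.37 ± 0.07 in TIR1. In PDS5AB-NIPBL its rise was 0.21 ± 0.07 (adjusted p 0.0326), with overlapping libraries, and in WAPL-NIPBL 0.39 ± 0.07.

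**Figure D4:**
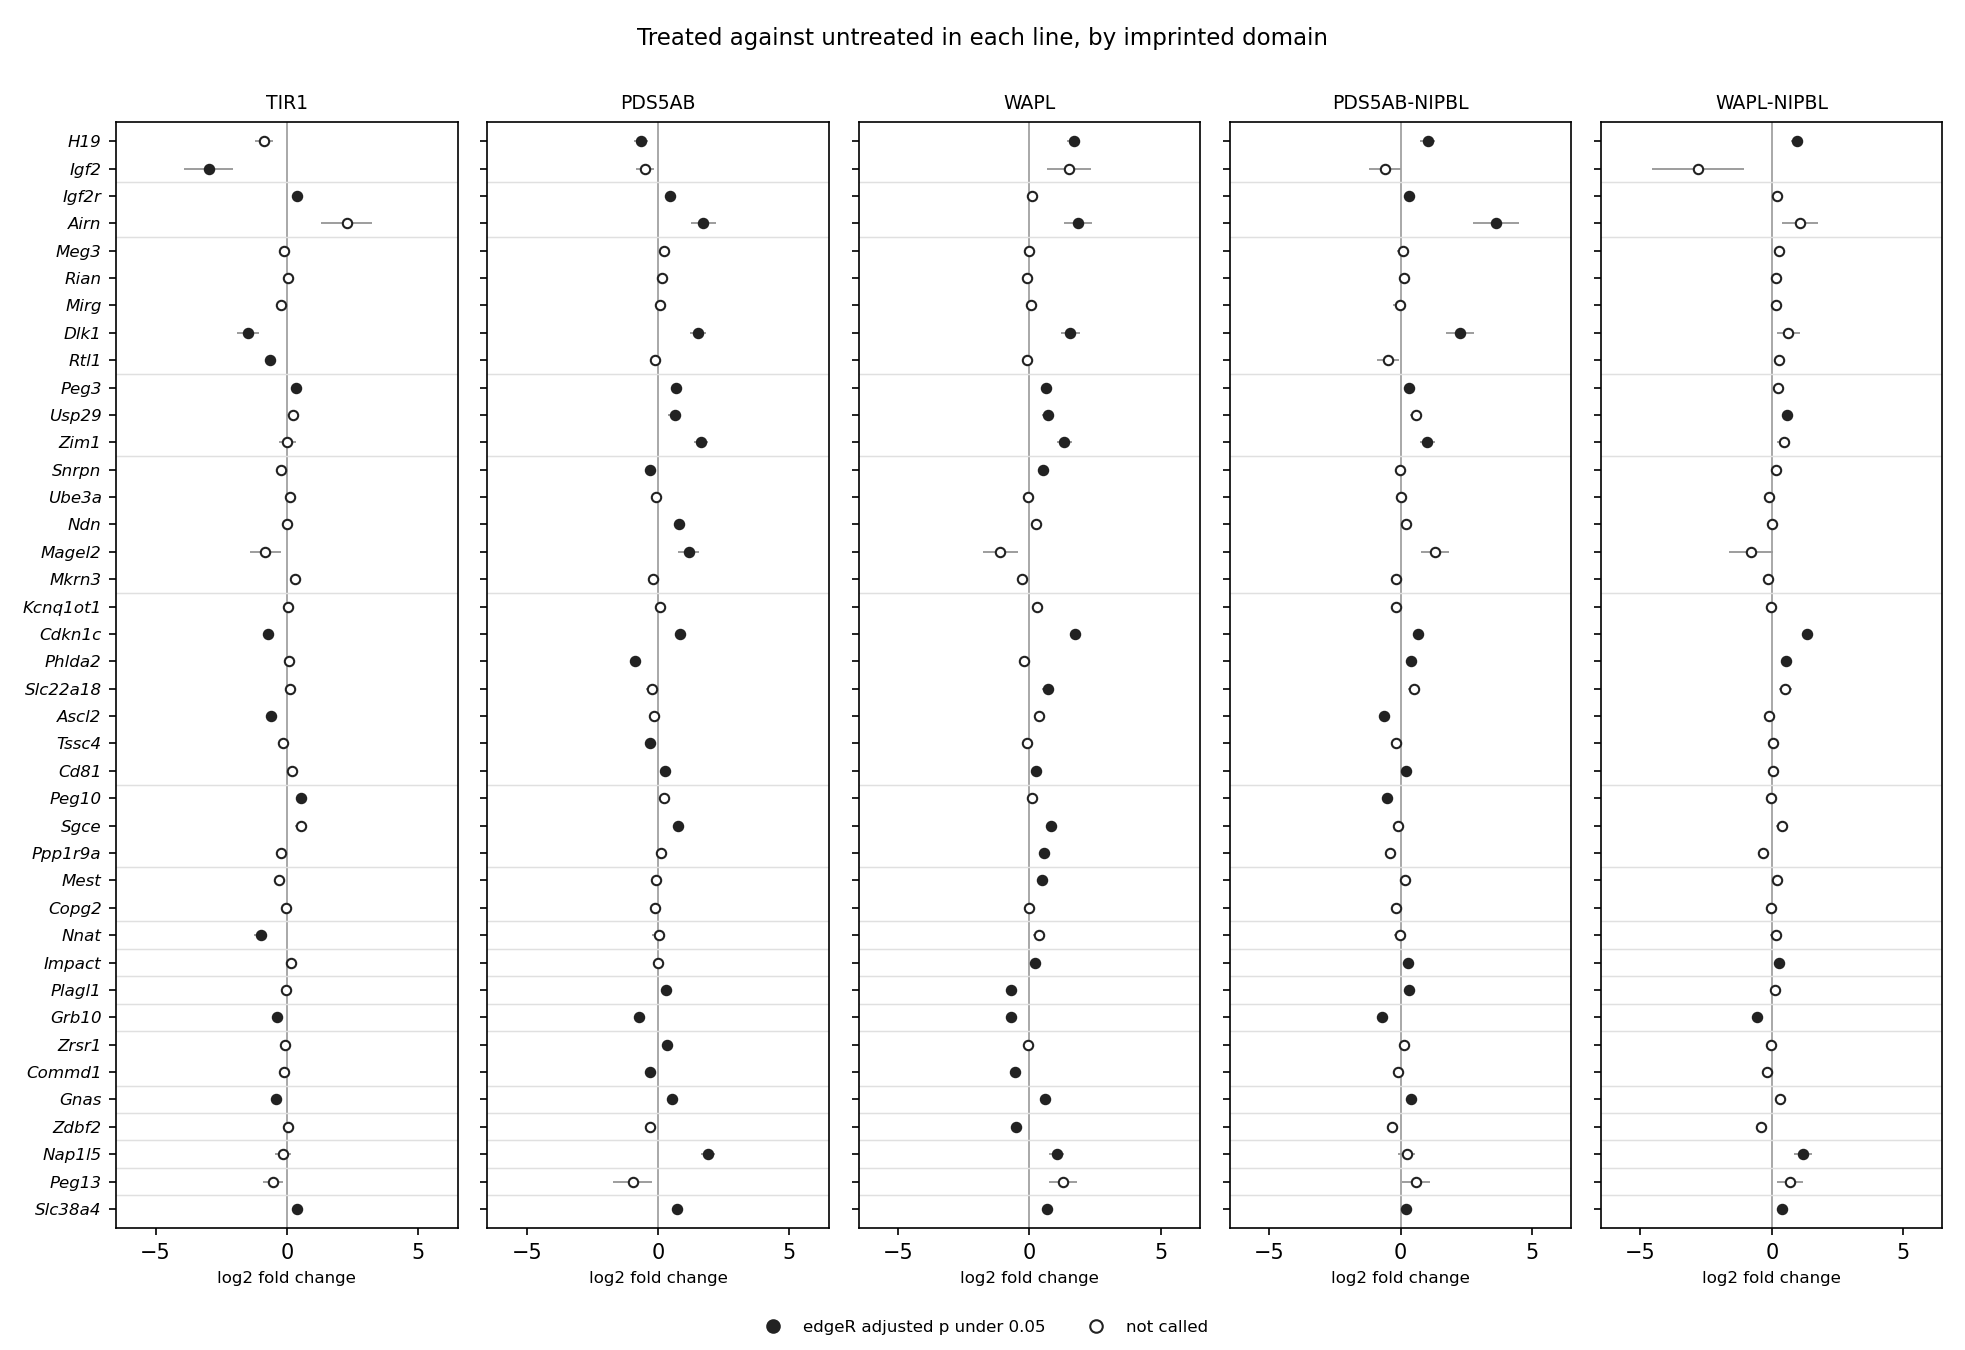
Log2 change with treatment in each of the 5 lines (edgeR, 3 treated against 3 untreated libraries), with bars of 1 standard error, for the 40 genes ordered by domain, filled where called. Meg3, Rian and Mirg lie near 0 in all 5 panels, and Cdkn1c is right of 0 in the 4 depletions and at -0.71 in TIR1.

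H19 rose in WAPL from 1.85, 2.96 and 2.24 CPM to 6.94, 8.51 and 7.32 (log2 change 1.69 ± 0.24, edgeR adjusted p 2.69e-06). In PDS5AB-NIPBL it went from 1.40, 1.13 and 1.67 to 3.05, 3.23 and 2.47 CPM (1.03 ± 0.28, adjusted p 0.00907), and in WAPL-NIPBL from 3.13, 3.88 and 4.64 to 5.75, 8.61 and 8.33 (0.96 ± 0.23, adjusted p 0.00759). The treated libraries lay above the untreated ones in these 3 lines, and the call in WAPL-NIPBL was lost without untreated replicate 1 (0.0540). In PDS5AB, H19 went the other way, from 3.54, 2.28 and 1.99 to 1.23, 1.57 and 2.09 CPM, with overlapping groups (-0.66 ± 0.27, adjusted p 0.0466). That call was lost in the compared groups alone (adjusted p 0.0586) and without PDS5AB untreated replicate 1 (0.308) or auxin replicates 1 or 2 (0.173 and 0.109). Igf2 was not called in any depletion, with 42 to 51 counts in treated and 53 to 98 in untreated PDS5AB libraries and at most 10 in the other depletion lines. In WAPL, with 4, 0 and 0 counts untreated and 3, 7 and 3 treated, it was called once untreated replicate 1 was left out (adjusted p 0.0149). With auxin in TIR1 Igf2 went from 7, 2 and 4 to 0, 2 and 0 counts and was called lower (adjusted p 0.0226), a call lost without untreated replicate 1 (0.130) or auxin replicate 1 or 3 (0.0817 and 0.0882). H19 in TIR1 (-0.87 ± 0.33, adjusted p 0.0614) was called lower with no filter (0.0207), by DESeq2 (0.0298) and without untreated replicate 2 (0.0170).

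Dlk1 rose in 3 of the 4 depletions. It went from 2.19, 1.39 and 0.993 CPM to 6.49, 3.5 and 3.04 in PDS5AB (log2 change 1.51 ± 0.32, edgeR adjusted p 0.000234) and from 1.08, 0.705 and 0.709 to 2.26, 2.17 and 3.02 in WAPL (1.56 ± 0.35, adjusted p 0.00082). In PDS5AB-NIPBL the counts went from 4, 1 and 10 to 15, 12 and 36 (2.25 ± 0.53, adjusted p 0.00234), to levels that overlap those of untreated TIR1. Dlk1 thus rose in the line where the members of the domain were low. In TIR1 it fell from 34, 24 and 18 counts to 11, 18 and 11 (-1.48 ± 0.43, adjusted p 0.0136). Without TIR1 untreated replicate 1 or auxin replicate 3 that fall was not called (adjusted p 0.0871 and 0.0584). None of the 3 maternal RNAs of the domain was called with it by the test reported, and Rtl1 was called in TIR1 alone (-0.64 ± 0.19).

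The Peg3 domain rose in both single-cofactor lines, where all 3 members were called. Peg3 went from 52.9, 45.3 and 49.0 CPM to 82.6, 71.9 and 78.6 in PDS5AB (log2 change 0.66 ± 0.09, edgeR adjusted p 1.13e-06) and from 57.0, 67.9 and 71.3 to 81.8, 109 and 114 in WAPL (0.64 ± 0.09, adjusted p 3.37e-06). In TIR1 it rose by 0.36 ± 0.09, and neither difference from that rise was called (adjusted p 0.0987 and 0.15). That of PDS5AB was called in the compared groups alone (0.0389) and that of WAPL without WAPL auxin replicate 1 (0.0125). In PDS5AB-NIPBL the rise was 0.31 ± 0.09 (adjusted p 0.0156, lost without untreated replicate 1 or 2 or treated replicate 1 or 3, at 0.0536 to 0.0848), and in WAPL-NIPBL 0.23 ± 0.09 (adjusted p 0.132, but 0.0192 with the replicate term within library sets and 0.0147 in a fit of its 6 libraries alone). Zim1 reached 3.24, 3.36 and 3.10 CPM in PDS5AB from 0.978, 1.26 and 0.883 (1.64 ± 0.26, adjusted p 6.44e-06) and 1.96, 2.52 and 2.87 in WAPL from 0.618, 1.20 and 1.14 (1.33 ± 0.27, adjusted p 0.00027). In TIR1 Zim1 changed by 0.02 with no call. The rise of Zim1 in PDS5AB-NIPBL (1.02 ± 0.28, adjusted p 0.00941) was not called in a fit of its 6 libraries alone (adjusted p 0.0517), or without untreated replicates 1 or 3 (0.0813 and 0.0605) or treated replicate 3 (0.0527). Usp29 rose in PDS5AB (0.63 ± 0.24), WAPL (0.72 ± 0.22) and WAPL-NIPBL (0.59 ± 0.18), and in PDS5AB-NIPBL it (0.59, adjusted p 0.0548) was called with the replicate terms (adjusted p 0.0405 and 0.0214).

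Nap1l5, a paternally expressed gene of the nucleosome assembly protein family inside an intron of Herc3, rose in PDS5AB from 33, 18 and 18 counts to 69, 81 and 92 (log2 change 1.91 ± 0.27, edgeR adjusted p 9.39e-07). It also rose in WAPL (1.05 ± 0.29, adjusted p 0.0052) from 15, 20 and 23 to 35, 56 and 41 counts, a call lost without untreated replicate 1 (adjusted p 0.0515). In WAPL-NIPBL it went from 9, 6 and 14 to 20, 32 and 25 (1.19 ± 0.34, adjusted p 0.0236), not called in that line's 6 libraries alone (adjusted p 0.0555) or without untreated replicate 2 (0.157) or treated replicates 1 or 2 (0.0513 and 0.0904). The counts in PDS5AB-NIPBL were 15, 14 and 23 and then 13, 14 and 26. Its effect there was smaller than in PDS5AB by a tested difference of -1.67 ± 0.42 (adjusted p 0.0107).

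Airn was near the limit of detection. It had 5, 8 and 11 counts in untreated and 12, 23 and 39 in treated PDS5AB libraries (edgeR adjusted p 0.00432, lost without treated replicate 3 at 0.0618), and 3, 6 and 7 and then 13, 25 and 27 in WAPL (adjusted p 0.00705, lost without untreated replicate 1 at 0.0560). In PDS5AB-NIPBL it had 1, 0 and 1 and then 15, 4 and 5 counts (adjusted p 0.00327), and no fold is given against a group this low. Igf2r, the clearance receptor for IGF2, was called higher with treatment in PDS5AB (log2 0.46 ± 0.12), PDS5AB-NIPBL (0.34 ± 0.12) and TIR1 (0.38 ± 0.12). With the replicate term within library sets Igf2r was also called higher with treatment in WAPL-NIPBL (0.19, adjusted p 0.0199, beside 0.369 without it) and lower in untreated PDS5AB-NIPBL than WAPL (-0.17, adjusted p 0.0304, beside 0.353). Both genes of the domain were thus called higher in the lines with PDS5 fusions. In TIR1 Airn went from 1, 0 and 1 to 7, 4 and 5 counts without a call. For neither gene was the effect in PDS5AB or WAPL called different from that in TIR1.

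In the Snrpn domain, Ndn rose in PDS5AB to 17.8, 15.1 and 13.6 CPM (log2 change 0.78 ± 0.14, edgeR adjusted p 4.9e-05), and Magel2 to 72, 61 and 68 counts from 45, 17 and 36 (1.16 ± 0.39, adjusted p 0.0153). The Magel2 call was lost without untreated replicate 2 (adjusted p 0.102) or treated replicate 1 (0.0635). In PDS5AB-NIPBL Magel2 was 1.31 higher (adjusted p 0.0809), called with the replicate terms (0.0490 and 0.0260). Snrpn fell in PDS5AB (-0.30 ± 0.09), a call lost without untreated replicate 1 (adjusted p 0.0859), and rose in WAPL from 34.4, 33.3 and 34.7 CPM to 55.0, 49.4 and 42.3 (0.52 ± 0.09, adjusted p 7.18e-05). Ube3a, a ubiquitin ligase gene, and Mkrn3, a makorin gene, were not called in any treatment. A host transcript of small nucleolar RNAs, Snhg14, overlaps Ube3a on the other strand.

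Among single-gene domains Gnas rose in 3 depletions (log2 0.51 ± 0.12 in PDS5AB, 0.61 ± 0.13 in WAPL and 0.40 ± 0.12 in PDS5AB-NIPBL) and fell in TIR1 (-0.40 ± 0.13). In WAPL-NIPBL it was 0.33 higher (edgeR adjusted p 0.131), called with the replicate term within library sets (0.0229). Plagl1 fell in WAPL from 99.3, 114 and 113 CPM to 56.4, 75.7 and 71.1 (-0.68 ± 0.08, adjusted p 1.16e-07) and rose slightly in PDS5AB (0.29 ± 0.10) and PDS5AB-NIPBL (0.31 ± 0.08). Its effects in WAPL-NIPBL and WAPL differed by 0.80 ± 0.11 (adjusted p 3.5e-05). Nnat fell in TIR1 alone, from 4.96, 6.60 and 4.43 to 3.25, 2.47 and 2.25 CPM (-1.01 ± 0.24, adjusted p 0.00307). Mest rose in WAPL (0.47 ± 0.13), and Sgce in PDS5AB (0.75 ± 0.17) and WAPL (0.83 ± 0.19), while Peg10 fell in PDS5AB-NIPBL (-0.53 ± 0.13) and rose in TIR1 (0.54 ± 0.13).

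**Figure D5:**
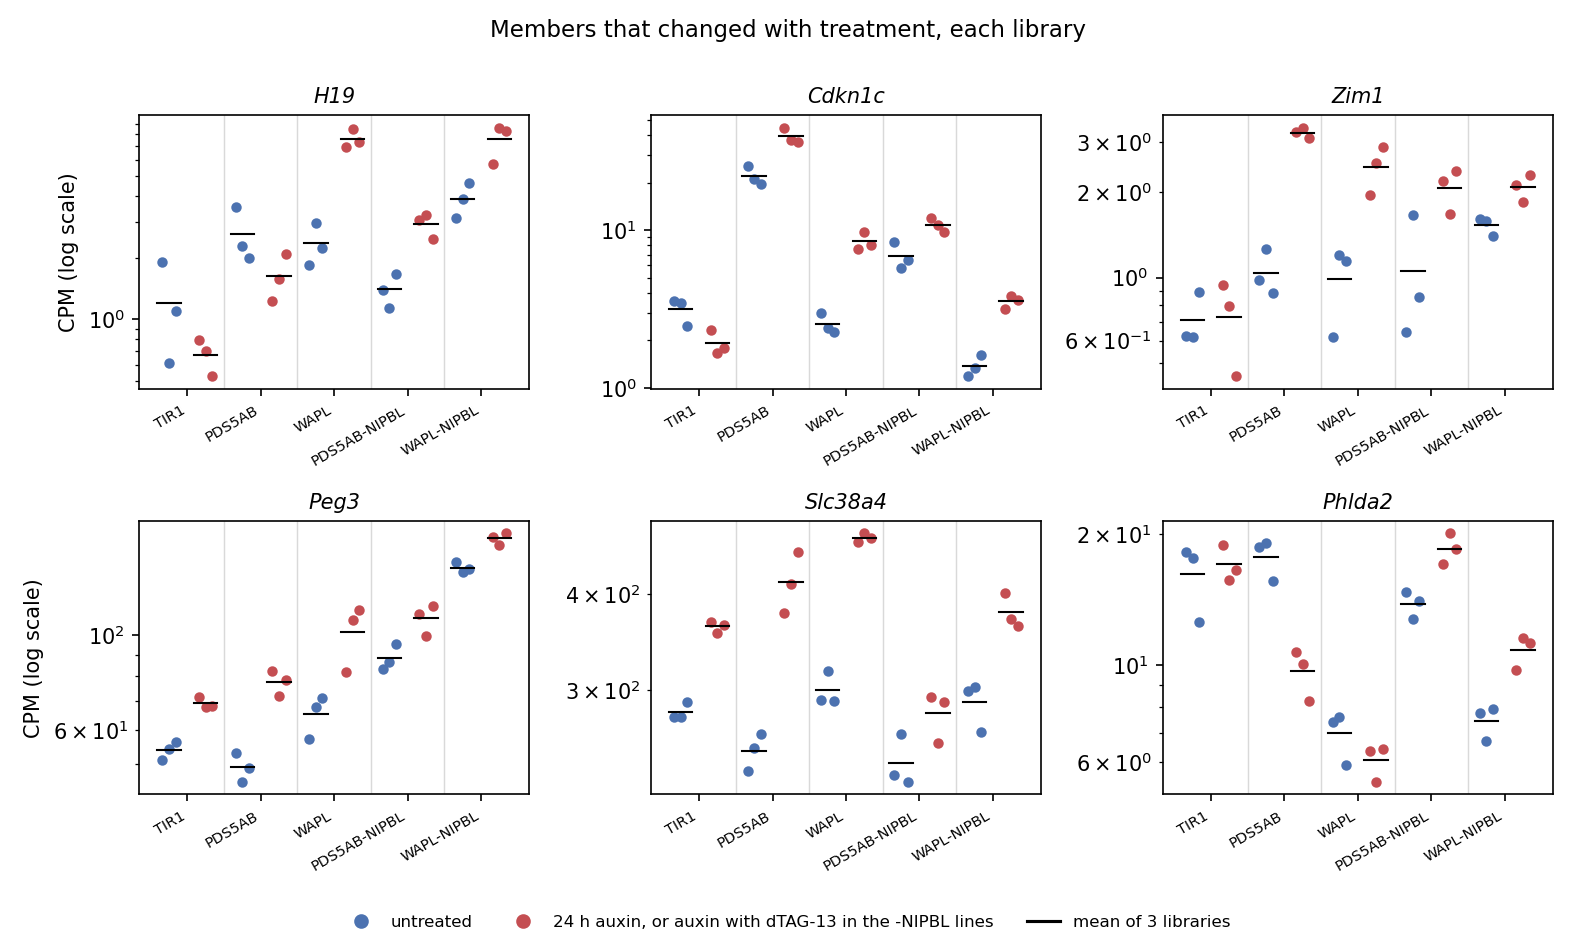
CPM (log axis) of 6 genes in each of the 30 libraries, by line, untreated in blue and treated in red, with black bars for the mean of 3. H19 lies higher in treated libraries of WAPL, PDS5AB-NIPBL and WAPL-NIPBL, and Phlda2 falls in PDS5AB and rises in both combined lines.

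The members with smaller changes were Commd1, a copper metabolism gene, Zrsr1, Tssc4, Cd81, Impact, Ppp1r9a and the DNA-binding factor gene Zdbf2. Zrsr1 lies within Commd1 on the other strand. Bases shared with other genes make up 11.9% of Commd1's exon bases and 9.17% of Zrsr1's, and fragments within them were dropped. Where called with treatment, the log2 changes of these members lay between -0.56 and 0.57. Commd1 fell in WAPL by 0.56 ± 0.10 (log2 change -0.56, edgeR adjusted p 5.78e-05) and less in PDS5AB (-0.32 ± 0.10). Tssc4 (-0.32 ± 0.08) and Zrsr1 (0.34 ± 0.08) were called in PDS5AB alone, Zdbf2 (-0.51 ± 0.17) and Ppp1r9a (0.57 ± 0.16) in WAPL alone with overlapping groups, Cd81 higher in PDS5AB, WAPL and PDS5AB-NIPBL (0.20 to 0.28), and Impact higher in WAPL and both combined lines (0.22 to 0.29). With the replicate term within library sets Zdbf2 was called lower in PDS5AB, PDS5AB-NIPBL and WAPL-NIPBL (adjusted p 0.00955, 0.0170 and 0.00185), Copg2 and Tssc4 lower in PDS5AB-NIPBL (0.0239 and 0.0369), and Peg10 higher in PDS5AB (0.0155). Ppp1r9a in PDS5AB-NIPBL (-0.39, adjusted p 0.0813) was called lower with the replicate terms (0.0211 and 0.00282), and in WAPL-NIPBL (-0.34, adjusted p 0.226) with the term within library sets (0.0191). Over the 5 treatments, 8 of the 40 members were called in none by the test reported: Meg3, Rian, Mirg, Ube3a, Mkrn3, Kcnq1ot1, Copg2 and Peg13. Beside the settings given above for Meg3 and Copg2, Kcnq1ot1 was called in WAPL with no filter (adjusted p 0.0445), Mkrn3 in TIR1 without untreated replicate 1 (0.0182) and Peg13 in WAPL without auxin replicate 3 (0.0368).

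Sorted by the parental copy they are usually made from, 11 of 22 paternal genes rose and 1 fell in PDS5AB, while 4 of 17 maternal genes rose and 5 fell. In WAPL 10 paternal genes rose and 2 fell, and 6 maternal genes rose and 2 fell. Of all genes 25.8% rose and 20.2% fell in PDS5AB and 17% and 15.8% in WAPL, so the maternal counts in PDS5AB lay near those shares. The median log2 change in PDS5AB was 0.25 for paternal and -0.09 for maternal genes, and in WAPL 0.42 and 0.05. In PDS5AB-NIPBL 6 paternal genes rose and 1 fell, and 6 maternal genes rose and 2 fell (11.4% and 8.06% of all genes). In WAPL-NIPBL 4 paternal genes rose and 0 fell, and 3 maternal genes rose and 1 fell (5.11% and 3.45%). In TIR1 the counts were 3 and 4, and 1 and 3 (10.4% and 9.59%). The paternal and maternal medians in these 3 lines were 0.18 and 0.07, 0.18 and 0.17, and -0.01 and -0.11. These are descriptions, and the difference between the classes was not tested.

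The treatment effects were also compared between lines. The effect in PDS5AB exceeded that in TIR1 for 10 members and fell below it for 2 (edgeR adjusted p under 0.05), where 26.3% of all genes were called (13.9% and 12.4%), and the effect in WAPL did so for 13 and 4, where 20.7% were (9.86% and 10.9%). The members above were Dlk1, Zim1, Cdkn1c, Nnat, Gnas, Nap1l5 and Slc38a4 in both, Ndn, Magel2 and Zrsr1 in PDS5AB, and H19, Igf2, Snrpn, Ascl2, Ppp1r9a and Mest in WAPL. Those below were Grb10 in both, Phlda2 in PDS5AB, and Mkrn3, Plagl1 and Commd1 in WAPL. Since the TIR1 effect runs across the break in library numbers, those differences carry it. Fewer members were called between the combined and the single-cofactor lines. The effect in PDS5AB-NIPBL was above that in PDS5AB for 2 members, H19 and Phlda2, and below it for 4, Nap1l5, Slc38a4, Peg10 and Sgce, against 9.46% of all genes called (4.97% and 4.48%). Between WAPL-NIPBL and WAPL it was above for Phlda2 (0.76 ± 0.20) and Plagl1 and below for Ppp1r9a (-0.91 ± 0.23), against 5.19% of all genes (3.03% and 2.16%). With the replicate term within library sets 10 members were called in the first of these, where 23% of all genes were (12.4% and 10.6%), and 8 in the second, where 13.9% were (7.96% and 5.95%). Those it added were Impact above and Ppp1r9a, Peg3 and Ndn below in the first (adjusted p 0.00114, 0.00944, 0.0134 and 0.0154), and Commd1 above and Peg3, Slc38a4, Snrpn and Cd81 below in the second (0.0124, 0.00430, 0.0136, 0.0169 and 0.0256). A plain term for replicate number called Impact in the first (0.0352) and Peg3 and Snrpn in the second (0.0296 and 0.0327). Peg3 in the second was also called with no filter (edgeR adjusted p 0.0171) and by DESeq2 (adjusted p 0.0370). It was called too without WAPL auxin replicate 1 or WAPL untreated replicate 3 (edgeR adjusted p 0.00302 and 0.0432). A line losing NIPBL alone was not analysed here.

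A list of 21 imprint regulators held genes that set or keep imprints and also Tet1 and Tet2, enzymes that oxidise methylcytosine. Of these 21 genes, 3 rose and 13 fell in PDS5AB, 2 and 8 in WAPL, and 1 and 9 in PDS5AB-NIPBL. In WAPL-NIPBL none rose and 5 fell, and in TIR1 2 rose and 6 fell. The shares of all genes that fell were 20.2%, 15.8%, 8.06%, 3.45% and 9.59% in that order, and those that rose 25.8%, 17%, 11.4%, 5.11% and 10.4%. Zfp57, the zinc-finger protein that keeps imprints methylated, fell in all 5 treatments, by a log2 change of -0.91 ± 0.08 in PDS5AB, -0.61 ± 0.08 in PDS5AB-NIPBL, -0.45 ± 0.08 in TIR1, -0.30 ± 0.08 in WAPL-NIPBL and -0.23 ± 0.08 in WAPL. Its partner Trim28 fell most in PDS5AB, from 1808 ± 257 to 722 ± 93.2 CPM (SD, n = 3, log2 -1.32 ± 0.11 SE). Dnmt1, the maintenance methyltransferase, fell by a smaller amount in PDS5AB (-0.24 ± 0.07) and PDS5AB-NIPBL (-0.19 ± 0.07), and Ctcf in PDS5AB (-0.27 ± 0.05). Dppa3, which affects DNA methylation in oocytes and early embryos, rose with auxin in TIR1 (1.51 ± 0.19) and fell in WAPL (-0.77 ± 0.21).

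Dnmt3a, a de novo methyltransferase, rose in both single-cofactor lines (log2 0.50 ± 0.09 in PDS5AB and 0.45 ± 0.09 in WAPL) and fell in TIR1 (-0.55 ± 0.09). Smchd1, a chromatin protein of X inactivation and imprinting, rose in PDS5AB (0.46 ± 0.09), WAPL (0.30 ± 0.09) and PDS5AB-NIPBL (0.25 ± 0.09). Tet2, an enzyme that oxidises methylcytosine, fell in all 4 depletions, by a log2 change of -1.25 ± 0.17 in WAPL, -0.98 ± 0.17 in WAPL-NIPBL, -0.81 ± 0.17 in PDS5AB and -0.61 ± 0.17 in PDS5AB-NIPBL. Dnmt3l, a cofactor of de novo methylation, fell in every treatment but that of WAPL, by -1.77 ± 0.13 in TIR1, -0.69 ± 0.12 in PDS5AB-NIPBL and -0.63 in both PDS5AB and WAPL-NIPBL. Of 41 further imprinted genes 34 could be tested. In PDS5AB 12 rose and 6 fell, in WAPL 7 and 1, in PDS5AB-NIPBL 5 and 3, in WAPL-NIPBL 2 and 1, and in TIR1 6 and 3. Beside the 46%, 32.8%, 19.5%, 8.57% and 19.9% of all genes called in these treatments, the counts in PDS5AB and WAPL-NIPBL were near the share of all genes and that in WAPL was below it, so they are no result about these genes. Cpa4, a carboxypeptidase gene of the Mest domain, rose from 0.0560 ± 0.0703 to 1.99 ± 0.639 CPM in PDS5AB and from 0.0676 ± 0.0707 to 0.944 ± 0.350 CPM in WAPL. Osbpl5, a lipid transfer gene at the edge of the Kcnq1 domain, rose in all 4 depletions (log2 1.55 ± 0.20 in PDS5AB, 1.13 ± 0.22 in PDS5AB-NIPBL, 1.06 ± 0.21 in WAPL-NIPBL and 0.67 ± 0.22 in WAPL). Atp10a, a phospholipid transporter gene, fell in PDS5AB (-1.16 ± 0.28) and rose in TIR1 (1.30 ± 0.29). Asb4 rose in WAPL-NIPBL (1.86 ± 0.60, edgeR adjusted p 0.0499). Trappc9 fell in every treatment but that of WAPL, by -0.44 ± 0.10 in WAPL-NIPBL and in TIR1, -0.59 ± 0.10 in PDS5AB and -0.31 ± 0.10 in PDS5AB-NIPBL. Mcts2 fell in PDS5AB (-0.74 ± 0.13) and TIR1 (-0.60 ± 0.13), Ddc in PDS5AB (-0.47 ± 0.10) and PDS5AB-NIPBL (-0.38 ± 0.10), and Chrac1 in PDS5AB (-0.43 ± 0.08), PDS5AB-NIPBL (-0.31 ± 0.08) and WAPL (-0.21 ± 0.08).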

How the data were processed

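Messenger RNA of 30 libraries (10 groups of 3) was measured as stranded polyA libraries, per the labels' protocols. The authors deposited raw counts of fragments per gene made by featureCounts 2.0.1 in paired-end mode on GENCODE vM23 gene models of GRCm38, per the file headers. The recorded command sets no option for strand, multi-mapping or fragments shared by genes, so antisense transcripts add to a gene and fragments in shared exons were dropped. The submitters' processing notes also name cutadapt, STAR 2.7.7a and deepTools. Symbols were matched for 55154 of 55421 genes (99.5%). Totals were 19632704 to 45539021 counts per library.

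Tests used edgeR 4.0.16 (R 4.3.3), with 1 quasi-likelihood model over the 30 libraries and a mean per group (20 residual degrees of freedom, common biological coefficient of variation 9.15%), after filterByExpr (minimum count 10, which left 19868 genes) and TMM scaling (factors 0.95 to 1.13). P-values were adjusted by Benjamini-Hochberg over the 19868 genes in each of 15 comparisons, with calls at adjusted p under 0.05. Standard errors come from the F statistic. CPM are TMM-scaled. Where a group held at most 3 counts in each library, no fold is given. The fit was tested on simulated data.

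Same-numbered libraries of a comparison deviated together from their group means across genes in the treatment effects of PDS5AB (r 0.333, 0.109 and 0.296), WAPL (0.331, 0.228 and 0.207), PDS5AB-NIPBL (0.163, 0.222 and 0.207) and WAPL-NIPBL (0.186, 0.249 and 0.195), and in both comparisons with untreated WAPL (0.109 to 0.238). The pairing comes from the replicate numbers in the labels. Where the numbers paired the libraries, calls that a block changed are given beside the result, and the others in the closing section. A block within each set of library numbers was added after seeing the data.

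The members and gene lists were chosen with earlier results of these data known. Members called with an absolute log2 value of at least 1, and at least 20 counts on average in the higher group, are described singly. So are 8 leading genes (H19, Igf2, Meg3, Peg3, Snrpn, Cdkn1c, Mest and Grb10). Per-library values are given for most of these results and only the fitted log2 value for the others. Regulators and further imprinted genes are named where they had the largest called change in a direction, with Zfp57, Trim28, Dnmt1, Dppa3 and Ctcf. The results were recomputed with DESeq2 1.42.0, RLE scaling, no filter, the compared groups alone, the blocks, and leaving out each library. Promoter sequences are those of RefSeq.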

Additional observations from a re-analysis of the deposited data

Results flagged for a closer look

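In the following members the effect of treatment differed between lines by a test of the difference itself (edgeR adjusted p under 0.05) and by at least 1 log2 unit. Against the effect of auxin in TIR1, the effect in WAPL was higher by 2.563 for H19, 3.045 for Dlk1, 1.314 for Zim1, 2.442 for Cdkn1c, 1.379 for Nnat, 1.011 for Gnas and 1.184 for Nap1l5. For Igf2 this difference was also called (adjusted p 0.01053), with 0 to 7 counts per library, and no size is given because treated TIR1 held 0, 2 and 0 counts. Against the same TIR1 effect, the effect in PDS5AB was higher by 2.997 for Dlk1, 1.622 for Zim1, 1.984 for Magel2, 1.553 for Cdkn1c, 1.019 for Nnat and 2.049 for Nap1l5. The effect in PDS5AB-NIPBL differed from that in PDS5AB by 1.69 for H19, 1.289 for Phlda2 and -1.671 for Nap1l5.

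The TIR1 effect runs across the break in library numbers, so the differences from it cannot be told apart from that break. For Nnat the TIR1 libraries fell while those of PDS5AB and WAPL did not change with a call, so the difference rests largely on the TIR1 libraries. Igf2 was likewise called in TIR1 and not in WAPL. The differences of Dlk1, Cdkn1c and Gnas include falls called in TIR1 (log2 -1.48, -0.71 and -0.40).

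Several of these differences rest on few counts or single libraries. That of Magel2 was lost in the compared groups alone (edgeR adjusted p 0.0508) and without any of 8 single libraries. That of Zim1 in WAPL was lost without any of 4, and that of Nnat in PDS5AB without any of 6. For Nap1l5 in WAPL it was lost with no filter (adjusted p 0.106), in the compared groups alone (0.0531) and without any of 8 single libraries.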

How the results depend on the processing

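Of 176 member values followed through the alternatives, none that was called, by the test reported or by the alternative, changed direction (RLE, DESeq2, no filter, compared groups alone, replicate blocks, each library left out). For 13 of them the fitted difference lay on both sides of 0 over the alternatives, with no call where the sign changed, as for Meg3 in the WAPL treatment (-0.24 to 0.20). For single members, 2130 values kept their side of the threshold, 46 passed it and 100 no longer did. The smaller calls of other members, such as those of Impact, Cd81 and Zrsr1, were not followed one by one when libraries were left out. Leaving out 1 library at a time, the members called numbered 7 to 10 in TIR1 (7 without auxin replicate 3), 19 to 22 in PDS5AB, 18 to 22 in WAPL, 10 to 14 in PDS5AB-NIPBL (10 without treated replicate 1 or 3) and 5 to 7 in WAPL-NIPBL (5 without untreated replicate 1 or treated replicate 1 or 2). Against untreated TIR1 they numbered 16 to 21 in PDS5AB, 6 to 15 in WAPL (6 without WAPL replicate 2), 21 to 23 in PDS5AB-NIPBL and 15 to 21 in WAPL-NIPBL. Against untreated WAPL they numbered 19 to 21 and 8 to 11. For the differences they numbered 10 to 14 and 12 to 16 against TIR1, 5 to 7 for PDS5AB-NIPBL less PDS5AB, and 1 to 4 for WAPL-NIPBL less WAPL (1 without WAPL untreated replicate 1, WAPL auxin replicate 2 or WAPL-NIPBL untreated replicate 2).

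The replicate block gave 5 members for WAPL-NIPBL less WAPL, and the block within library sets 8. The latter gave 10 for PDS5AB-NIPBL less PDS5AB and 14 for the WAPL-NIPBL treatment. Over all genes that block called 6118 in place of 3874 genes in the PDS5AB-NIPBL treatment and 3910 in place of 1702 in the WAPL-NIPBL treatment. Against untreated WAPL it called 6203 in place of 3987 and 4121 in place of 2119, and in the 2 differences 4573 in place of 1879 and 2763 in place of 1032. Where the numbers did not pair the libraries, the block added calls and ended none: Snrpn and Cd81 in the TIR1 effect (adjusted p 0.0163 and 0.0302), and against untreated TIR1 Meg3 in PDS5AB (0.0197), Zdbf2 and Ppp1r9a in WAPL (0.0260 and 0.0178) and Igf2 and Rian in WAPL-NIPBL (0.0350 and 0.00667). In the differences from the TIR1 effect it added Mkrn3, Igf2 and Plagl1 for PDS5AB (0.0339, 0.0390 and 0.0405) and Zdbf2 for WAPL (0.0434). The cause of these changes was not tested. Depth limits Airn, Igf2, Peg13, Magel2 and, in PDS5AB-NIPBL, Dlk1 and Rtl1.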
